A study of Danio rerio with 47 samples.

Results

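The 4 zebrafish transcripts described here are not in the oocyte marker lists used below. They are followed across dnd morphants and wild type at 14 and 22 days post fertilization (dpf). They are 4 of the 31475 rows of the deposited table: slc7a1b (listed as zgc:63694), tmsb5 (listed as si:dkey-167i21.2), larp6b (listed as zgc:162969) and npm2b (listed as npm2). They were chosen by measured values of these same arrays, namely their lower level in morphants at 22 dpf and their link to oocyte genes. Their group differences and their correlations with oocyte markers are therefore given as description, with no p-value, and nothing is supported with them. Row names were matched to current symbols through synonyms in tables of zebrafish genes. The RefSeq table lists tmsb5 as a long noncoding RNA and the other 3 as protein coding.

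RNA came from developing trunk regions of fish, amplified as a whole transcriptome and hybridized to 1-colour NimbleGen arrays, 47 in all. The morphants had received a morpholino against dnd as embryos of 1 cell and were picked at 24 hours post fertilization for a count of 1 to 9 primordial germ cells; the wild type is labelled as having a high count. At 14 dpf there were 9 morphant arrays (the labels state 10) and 14 wild-type arrays, and at 22 dpf 10 and 14. The labels speak of biological replicates but do not say whether an array holds 1 fish or a pool, so p-values below measure only the spread between these arrays. Values are log2 intensities, from 3.3 to 15.86 over the whole table, with array medians from 7.26 to 7.70. The table carries no detection calls, so a low value cannot be told from array background, and levels of different genes are not set against each other. In trunk RNA, fewer germ cells and less RNA per germ cell cannot be told apart. A morpholino of this kind blocks translation, so the dnd1 transcript, a germ cell RNA that was itself lower at 22 dpf (-3.76 ± 0.61, limma adjusted p = 2.78e-05), does not check the knockdown.

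Juvenile zebrafish gonads pass through an ovary-like stage in which early oocytes form, and in future males these oocytes are later lost. Growing oocytes build an egg coat of zona pellucida proteins and store RNA and protein for the embryo. Slc7a1b is of the family of cationic amino acid transporters, which carry arginine and lysine across the plasma membrane. Tmsb5 is named as one of the beta-thymosins, small peptides that bind actin monomers, although the RefSeq table lists it as noncoding. Larp6b is a La-related RNA-binding protein; in mammals LARP6 binds collagen mRNAs. Npm2b is a nucleoplasmin, a histone chaperone stored in eggs. As markers, zp3 stands for the egg coat of growing oocytes, and the RNA helicase ddx4 (listed as vasa) for germ cells of any stage.

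Some arrays stood apart, which touches each result below. Arrays are named by the number in their title. Deviations from the group mean were correlated between arrays of a group, and 5 of 263 pairs exceeded a correlation of 0.65. At 22 dpf these were morphant arrays 1 and 2 (0.749) and 3 and 4 (0.72), and wild-type arrays 5 and 6 (0.893), 7 and 8 (0.75) and 9 and 10 (0.701). Morphant arrays 5 and 13 at 14 dpf followed with 0.639, and the next pair had 0.413. Such near-duplicates may not be separate samples. Morphant arrays 1 and 2 at 22 dpf also went against the other morphants in ddx4, with 10.77 and 10.86 against 5.40 to 7.89 in the other 8.

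At 22 dpf all 4 transcripts were lower in morphants, with log2 differences from -5.24 to -3.98. At 14 dpf the differences lay between -1.49 and 0.26. In wild type at 22 dpf slc7a1b, tmsb5 and larp6b spread over a wide range between arrays and followed zp3 across that range. Npm2b was low on wild-type arrays 11 and 23 and ran only from 13.06 to 15.46 on the other 12. Over those 12 arrays its Pearson correlation with zp3 was 0.63, against 0.86 over all 14 wild-type arrays. On the same 12 arrays slc7a1b had 0.97, tmsb5 0.92 and larp6b 0.84.

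Slc7a1b, the transporter, spread over most of the scale in wild type at 22 dpf and over less of it in the other groups. In wild type at 22 dpf its lowest, median and highest values were 4.54, 12.05 and 15.24 (mean 10.90 ± 3.59, SD, n = 14). In morphants of that age they were 4.18, 5.03 and 8.75 (5.65 ± 1.60, SD, n = 10). The groups overlapped, because wild-type arrays 11 and 23 stood at 5.15 and 4.54, among the low morphants, and morphant arrays 1 and 2 stood at 8.75 and 8.45, within the wild-type range. All 10 morphants were under the median of the wild type, and 9 of 14 wild-type arrays lay above the highest morphant. The difference was -5.24 ± 0.85 (SE from limma), -5.24 with the near-duplicate pairs averaged and -5.98 without morphant arrays 1 and 2. At 14 dpf the values were 4.39, 4.81 and 5.58 in morphants and 4.43, 4.88 and 5.79 in wild type. These groups overlapped nearly throughout, with a difference of -0.13 ± 0.88. Apart from the wild type at 22 dpf, slc7a1b thus had group medians of 4.81, 4.88 and 5.03, close to one another beside the spread between arrays.

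Tmsb5, a beta-thymosin by name, had a lowest, median and highest value of 6.78, 11.86 and 15.04 in wild type at 22 dpf (11.62 ± 2.36, SD, n = 14). The morphants stood at 4.20, 6.30 and 9.49 (6.53 ± 1.76, SD, n = 10). Of the morphants 7 of 10 lay below every wild-type array, and those that overlapped with wild-type arrays 11 and 23 (7.42 and 6.78) were arrays 1, 2 and 15. The difference was -5.09 ± 0.66, -5.13 with the pairs averaged and -5.82 without morphant arrays 1 and 2. Tmsb5 was also somewhat lower in morphants at 14 dpf, where they had 4.98, 6.11 and 6.38 and the wild type 5.37, 7.06 and 9.21. All 9 morphants were under the median of the wild type, but 6 of them lay within the wild-type range. The difference at that age was -1.31 ± 0.68; the standard error is 0.35 when the spread is taken from 14 dpf alone.

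Larp6b, the RNA-binding protein, had 6.60, 10.61 and 13.38 in wild type at 22 dpf (10.65 ± 2.04, SD, n = 14). In morphants its lowest, median and highest values were 5.11, 6.45 and 9.01 (6.67 ± 1.38, SD, n = 10). The overlap came again from wild-type arrays 11 and 23 (6.60 and 7.39) and morphant arrays 1 and 2 (8.88 and 9.01), joined by morphant arrays 3 and 4, and 6 of 10 morphants lay below every wild-type array. The difference was -3.98 ± 0.53, -4.14 with the pairs averaged and -4.54 without morphant arrays 1 and 2. At 14 dpf larp6b had 4.98, 5.39 and 6.52 in morphants and 4.53, 5.26 and 6.17 in wild type. No morphant array lay below the wild type there, 3 of 9 lay below its median, and the difference was 0.26 ± 0.55.

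Npm2b, the histone chaperone of eggs, had 8.98, 14.06 and 15.46 in wild type at 22 dpf (13.52 ± 1.91, SD, n = 14). The morphants stood at 4.87, 8.18 and 11.88 (8.51 ± 2.33, SD, n = 10). Here 7 of 10 morphants lay below every wild-type array; the exceptions were arrays 1 and 2 (11.88 and 11.71) and array 18 (10.62). The difference was -5.01 ± 0.67, -5.13 with the pairs averaged and -5.83 without morphant arrays 1 and 2. At 14 dpf morphants had 6.28, 7.21 and 9.57 and wild type 7.0, 9.08 and 10.77. In npm2b 8 of 9 morphants lay below the wild-type median at that age, and the near-duplicate arrays 5 and 13 (8.86 and 9.57) were the highest morphants. The difference at 14 dpf was -1.49 ± 0.69 (standard error 0.43 from that age alone), and -1.71 with arrays 5 and 13 averaged.

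**Figure D1:**
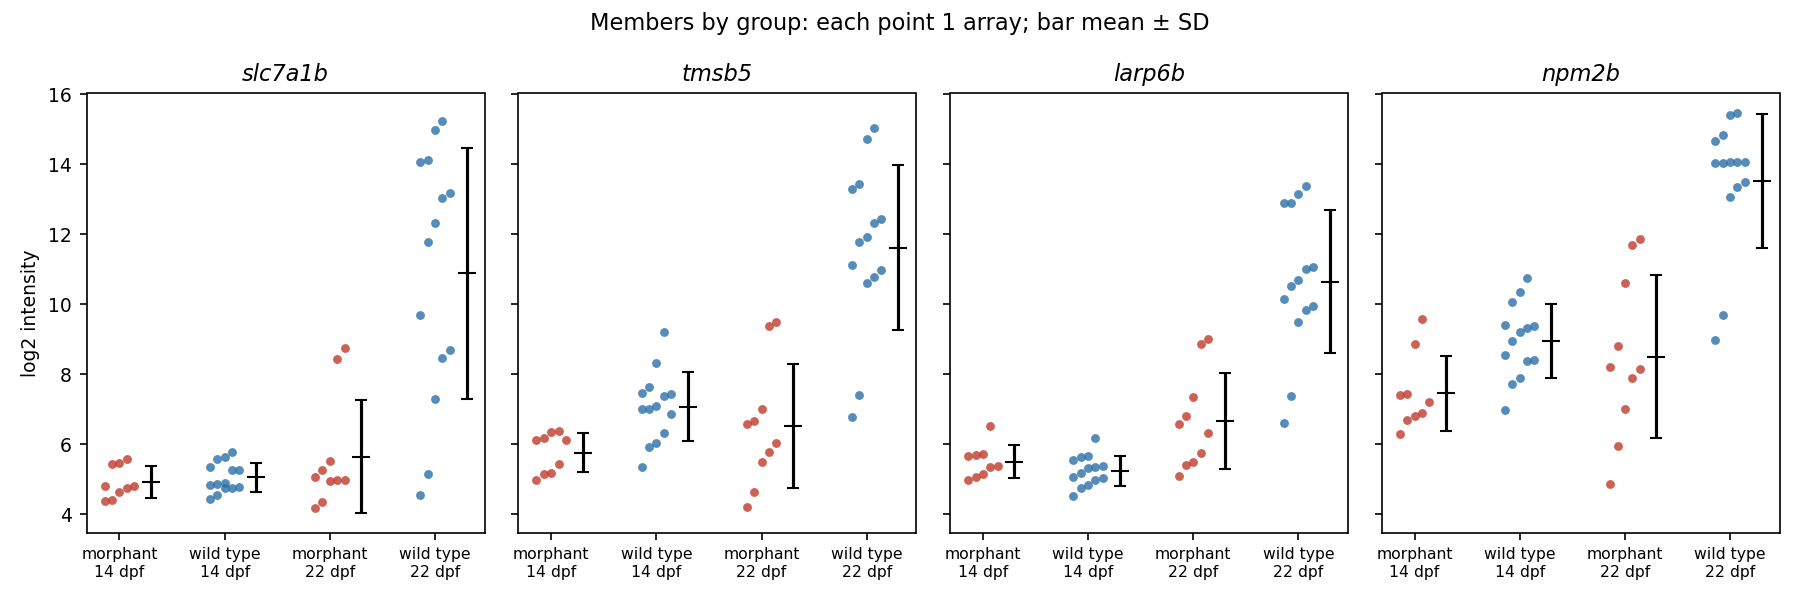
Log2 intensity of slc7a1b, tmsb5, larp6b and npm2b on each array (points) in morphants and wild type at 14 and 22 dpf, with the mean and SD of each group as a bar. In wild type at 22 dpf arrays 11 and 23 are the lowest for every gene. Slc7a1b spreads there from 4.54 to 15.24, with 5 of 14 wild-type arrays no higher than the highest morphant. In morphants at 22 dpf arrays 1 and 2 stand above the other 8 for every gene, with array 18 next in npm2b (10.62).

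At an adjusted p below 0.05, limma called 4 of the 4 genes lower in morphants at 22 dpf and 0 of 4 at 14 dpf. Over all rows it called 2.89% lower and 0.591% higher at 22 dpf, and 1.33% lower and 1.15% higher at 14 dpf. The spread was shared by both ages in this fit; taken from 22 dpf alone the standard errors of the 4 differences at that age were 1.13 for slc7a1b, 0.82 for tmsb5, 0.70 for larp6b and 0.81 for npm2b. From 14 dpf alone slc7a1b had 0.19 and larp6b 0.20. Limma called the same numbers of the 4 genes with each age fitted alone. Since both contrasts were known when the genes were picked, nothing is read from these counts. The median difference over all rows was 0.04 at 22 dpf and -0.01 at 14 dpf. From 14 to 22 dpf the difference between morphants and wild type changed by -5.12 ± 1.22 for slc7a1b, -4.23 ± 0.76 for larp6b, -3.78 ± 0.94 for tmsb5 and -3.51 ± 0.96 for npm2b. Whether arrays of both ages were normalized together was not stated in the sources used here, so the levels of the 2 ages are set side by side without a test.

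The title numbers give the only order of the arrays, and the differences at 22 dpf were also taken within numbers up to 12 (4 morphant and 8 wild-type arrays) and above 12 (6 and 6). They were -4.28 and -5.73 for slc7a1b, -4.11 and -5.54 for tmsb5, -2.55 and -4.99 for larp6b and -3.62 and -5.81 for npm2b. All 4 genes were thus lower in morphants in both number groups, by less in the group that holds morphant arrays 1 and 2. In larp6b the morphant arrays 3 and 4 of that group (6.80 and 7.35) were also above the highest morphant array over 12 (6.59). At 14 dpf the corresponding values were -0.10 and -0.18 for slc7a1b, -1.59 and -1.06 for tmsb5, 0.36 and 0.11 for larp6b and -1.21 and -1.77 for npm2b.

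The wild-type arrays at 22 dpf differed from each other more than the group means show. Wild-type arrays 11 and 23 were low in all 4 genes and in zp3 (6.0 and 6.44), while ddx4 stood at 10.11 and 9.55 there, above all morphants but arrays 1 and 2. Among the other 12 wild-type arrays slc7a1b ran from 7.29 to 15.24, tmsb5 from 10.62 to 15.04, larp6b from 9.51 to 13.38 and npm2b from 13.06 to 15.46. Over the same 12 arrays zp3 ran from 8.81 to 14.13 and ddx4 only from 11.22 to 13.01. Npm2b was thus high on every one of these arrays, near the top of the scale of the table, whereas slc7a1b spanned 7.95 log2 units.

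Over the 14 wild-type arrays at 22 dpf, slc7a1b followed zp3 with a Pearson r of 0.98 (Spearman rho 0.97). It was 0.97 without arrays 11 and 23, which lie farthest from the median of zp3, and 0.98 over the 11 samples left when near-duplicates are averaged. Tmsb5 had an r of 0.96 with zp3 (rho 0.94, 0.92 without these arrays, 0.96 with pairs averaged). Larp6b had 0.93 (rho 0.87, 0.84 without them, 0.93 with pairs averaged), and npm2b 0.86 (rho 0.76, 0.63 without them, 0.88 with pairs averaged). Slc7a1b had the highest and npm2b the lowest value under each of these choices, while within title numbers up to 12 tmsb5 (0.988) was above slc7a1b (0.984). For 1 log2 unit of zp3 the fitted line rose by 1.36 units of slc7a1b, 0.88 of tmsb5, 0.73 of larp6b and 0.63 of npm2b. These slopes include arrays 11 and 23. They are not ranked between genes, because npm2b lay between 13.06 and 15.46 on the other 12 arrays, near the top of the scale. These points come from the same arrays and share their RNA and scaling, so the correlations are a description.

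With ddx4 the order was another one. The Pearson r over the same 14 arrays was 0.95 for tmsb5 (rho 0.80), 0.93 for larp6b (rho 0.86), 0.91 for npm2b (rho 0.78) and 0.86 for slc7a1b (rho 0.82). Without wild-type arrays 23 and 5, the farthest from the median of ddx4, the values were 0.92, 0.93, 0.88 and 0.78. Ranked among the 31471 other rows by r, zp3 took place 3 for slc7a1b, 58 for tmsb5, 106 for larp6b and 138 for npm2b. For ddx4 the places were 247, 85, 111 and 46 in the same order of genes. By Spearman rho the order with ddx4 was again another one, with npm2b lowest, so these places depend on the measure. Among themselves the 4 genes had correlations from 0.82 (slc7a1b with npm2b) to 0.96 (tmsb5 with larp6b).

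**Figure D2:**
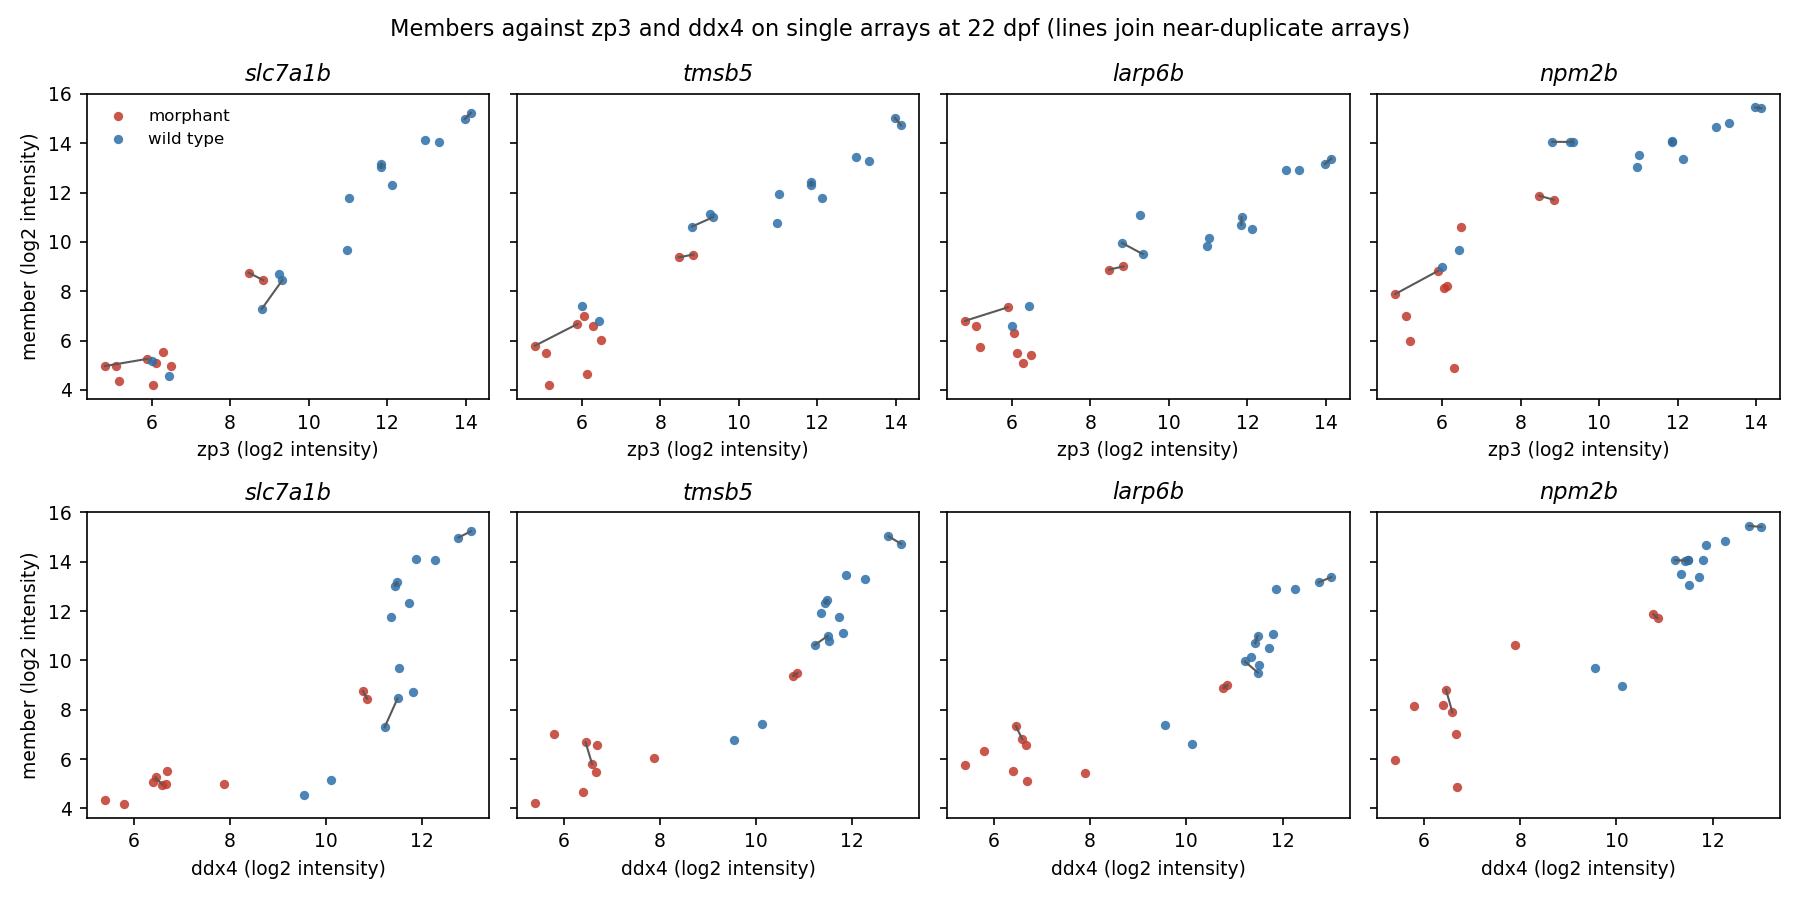
Log2 intensity of each gene against zp3 (upper row) and ddx4 (lower row) on single arrays at 22 dpf, morphants in red and wild type in blue, with lines joining near-duplicate arrays. Slc7a1b climbs with zp3 in a narrow band (r = 0.98 over 14 wild-type arrays) and steeply over a small range of ddx4, while npm2b is near its highest values on 12 of the wild-type arrays.

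In morphants at 22 dpf the correlations rested on arrays 1 and 2. Over 10 arrays the r with zp3 was 0.90 for slc7a1b, 0.87 for tmsb5, 0.68 for larp6b and 0.76 for npm2b. Without arrays 1 and 2 it was 0.25, 0.41, -0.53 and 0.31, and with ddx4 it was then 0.59, 0.28, -0.19 and 0.54. The other 8 morphants had little spread in slc7a1b (4.18 to 5.52), while npm2b ran from 4.87 to 10.62 in them. Morphant array 18, which was highest of the 8 in npm2b, also had their highest ddx4 (7.89) and zp3 (6.49). On that array slc7a1b (4.98) and tmsb5 (6.03) were near the medians of the 8 (4.98 and 5.91), and larp6b (5.42) was below its median (6.03).

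Morphant arrays 1 and 2 can be set beside wild-type arrays 7 and 8, whose zp3 was close to theirs (8.81 and 9.33 against 8.47 and 8.84). Slc7a1b stood at 8.75 and 8.45 in these morphants and at 7.29 and 8.46 in these wild-type arrays. Npm2b stood at 11.88 and 11.71 in the morphants and at 14.06 and 14.05 in the wild type. Tmsb5 had 9.38 and 9.49 against 10.62 in wild-type array 7, with array 8 higher still, and larp6b 8.88 and 9.01 against 9.96 and 9.51. At a similar zp3 the morphant pair was thus lower in npm2b, tmsb5 and larp6b and not in slc7a1b. The morphant pair was also lower over the germ cell lists described below, so this is not particular to these genes. The mean over 17 egg coat genes was 7.87 and 7.92 against 8.65 and 8.66. Over 22 oocyte factors it was 7.41 and 7.51 against 8.19 and 8.41. For 28 germ plasm, piRNA and meiosis genes it was 7.86 and 7.90 against 8.92 and 8.90. Slc7a1b followed zp3 closely in wild type, so picking arrays by zp3 favours alike values of slc7a1b. Each side is 1 near-duplicate pair picked by its zp3 value, so no test was made.

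At 14 dpf the 4 genes did not move together. Slc7a1b (4.39 to 5.79), larp6b (4.53 to 6.52) and zp3 (median 5.53 in wild type) were then low on the scale. Such values cannot be told from array background, so weak correlations there are not read as a trait of the genes. Over the 14 wild-type arrays their correlations among themselves ran from -0.47 to 0.45, and over the 9 morphant arrays from -0.56 to 0.79. In wild type, r with ddx4 was -0.18 for slc7a1b, -0.60 for tmsb5, 0.00 for larp6b and 0.18 for npm2b. Without wild-type arrays 20 and 8 these became 0.44, -0.28, 0.17 and 0.07, so the sign for slc7a1b turned. With zp3 the same 14 arrays gave 0.07 for slc7a1b (-0.34 without arrays 20 and 8), 0.69 for tmsb5 (0.53 without arrays 20 and 8), 0.64 for larp6b (0.75 without them) and -0.39 for npm2b (-0.57 without them). Ddx4 itself was lower in morphants at 14 dpf, with a lowest, median and highest value of 6.05, 7.10 and 10.92 against 6.60, 10.35 and 12.12 (-2.84 ± 0.57, limma adjusted p = 0.00426). Of the 4 genes, npm2b (-1.49 ± 0.69) and tmsb5 (-1.31 ± 0.68) had differences of the same sign at that age as ddx4. Those of slc7a1b (-0.13 ± 0.88) and larp6b (0.26 ± 0.55) were smaller than their standard errors, so no sign is read from them.

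**Figure D3:**
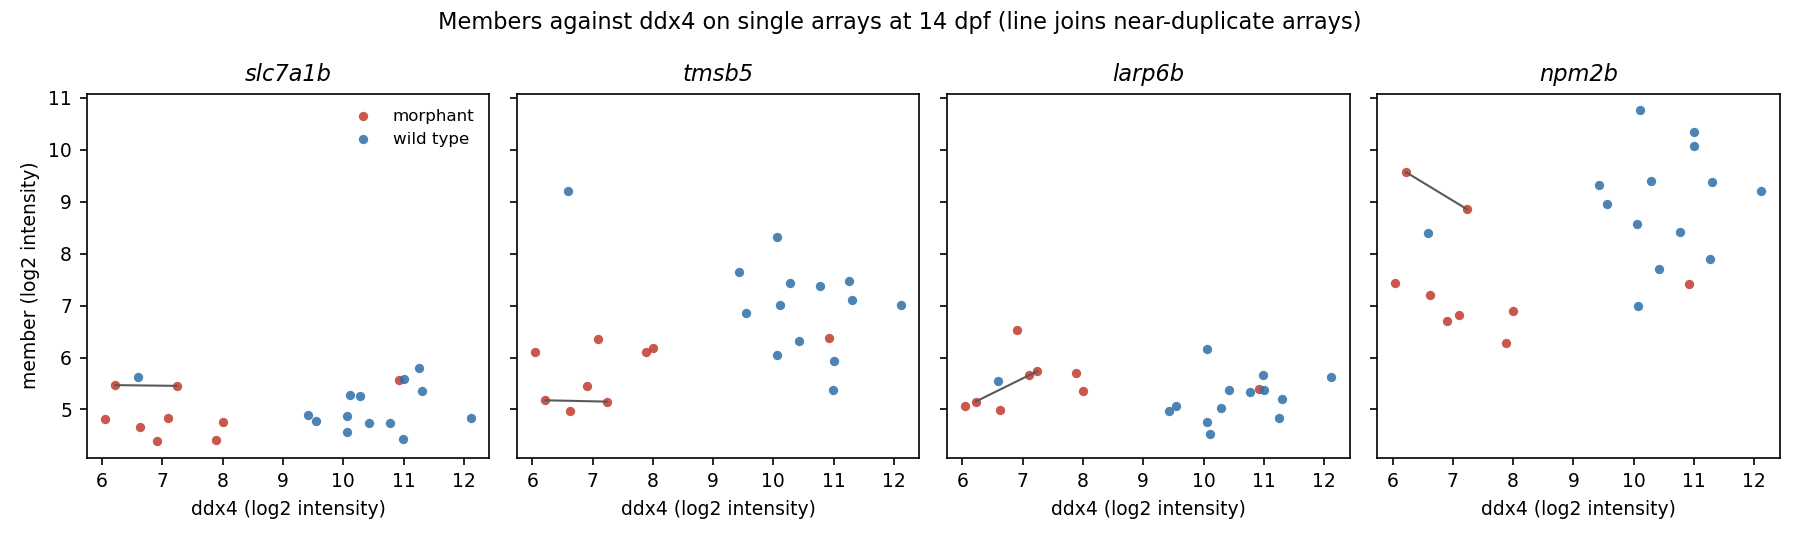
Log2 intensity of each gene against ddx4 on single arrays at 14 dpf, morphants in red and wild type in blue, with a line joining near-duplicate morphant arrays 5 and 13. Ddx4 separates most arrays of the groups, slc7a1b (4.39 to 5.79) and larp6b (4.53 to 6.52) span a small range, and wild-type array 20 combines a low ddx4 (6.60) with the highest tmsb5 (9.21).

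For each of the 4, the named genes most alike over the 14 wild-type arrays at 22 dpf were ranked by Pearson r. For slc7a1b they were the egg coat genes zp2.2 (0.986), zp3 (0.983), zp3.2 (0.978) and zpax4 (listed as wu:fi38e01, 0.965) and the maternal linker histone h1m (0.961). For tmsb5 they were pabpc1l (0.985), an embryonic poly(A)-binding protein, npm2a (0.983), tmem144b (0.982), h1m (0.981) and avd, an avidin gene (listed as loc567678, 0.980). For larp6b they were figla (0.983), a transcription factor of oocytes, sp5b (listed as loc799504, 0.978), the retinol receptor stra6 (0.975), avd (0.974) and mcm6l (0.974). For npm2b they were s100a1 (0.988), the trehalase gene treh (0.979), ankrd66 (0.977), npm2a (0.972) and buc (0.969), which organizes the Balbiani body of the oocyte. The lists of slc7a1b and npm2b thus shared no gene. Each list was cut at 5 genes whose r values lay close together, so this is not read as a contrast between the genes. The r values of npm2b also include the low wild-type arrays described above (8.98 and 9.68 in npm2b). By Spearman rho its 5 genes had another order, with npm2a (0.930) and buc (0.886) above s100a1 (0.877), treh (0.877) and ankrd66 (0.837). Over all 24 arrays at 22 dpf the 5 genes nearest to slc7a1b were the same as over the 14, with zp3 first (0.982). Tmsb5 kept 2 of its 5, and larp6b and npm2b kept 1 each. The 5 nearest to npm2b were then pabpc1l (0.958), treh (0.955), zp2.5 (0.940), ccnd3 (0.940) and xgb (0.940).

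The relatives of the 4 genes in their family lists were tested in the same limma fit over all rows. Their values did not choose the 4 genes, but the lists were written with earlier results of these data known. The slc7 list also holds slc3a1, slc3a2a, slc3a2b and slc7a6os, which are not paralogs of slc7a1b. Of 35 measured relatives 1 was called at 22 dpf, where 5 had an unadjusted p below 0.05. Of all rows 3.49% were called and 13.9% had an unadjusted p below 0.05 at that age. The shares of the relatives are thus near the background. At 14 dpf 1 was called and 8 had an unadjusted p below 0.05, beside 2.48% and 16.7% of all rows. The relative called at 22 dpf was npm2a, a nucleoplasmin named as the pair of npm2b. Npm2a fell from 9.32 ± 2.29 (SD, n = 14) in wild type to 5.61 ± 1.59 (SD, n = 10) in morphants, a difference of -3.70 ± 0.63 (adjusted p = 5.58e-05). At 14 dpf its difference was -0.26 ± 0.65 (adjusted p = 0.889), beside -1.49 ± 0.69 for npm2b. The difference between the 2 ages for npm2a, -3.45 ± 0.91, did not pass (adjusted p = 0.0581). The somatic nucleoplasmins npm1a (0.10 ± 0.12, adjusted p = 0.808), npm1b (0.57 ± 0.36, adjusted p = 0.533) and npm3 (0.03 ± 0.13, adjusted p = 0.965) were not called at 22 dpf.

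Of the beta-thymosins other than tmsb5, 0 of 3 were called by limma at either age, and 0 at 22 dpf and 2 at 14 dpf had an unadjusted p below 0.05. At 22 dpf the differences were 0.15 ± 0.12 for tmsb, 0.01 ± 0.09 for tmsb1 and 0.05 ± 0.08 for tmsb4x. Their values varied little, tmsb4x running from 15.02 to 15.44 over the wild-type arrays of that age, close to the top of the scale. Of the 12 measured members of other families that bind actin monomers (profilins, cofilins, twinfilins and cyclase-associated proteins), limma called 0 at either age, with a median difference of 0.13 at 22 dpf. At an unadjusted p below 0.05 there were 0 at 22 dpf and 1 at 14 dpf.

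Of the La-related and La proteins other than larp6b, 0 of 8 were called by limma at either age, and 0 at 22 dpf and 2 at 14 dpf had an unadjusted p below 0.05. Larp6, the nearest relative by name, stood at 7.65 ± 0.33 (SD, n = 10) in the morphants at 22 dpf and at 7.66 ± 1.36 (SD, n = 14) in the wild type. Its difference was -0.01 ± 0.39, and the median over the 8 relatives was 0.11.

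In the list of slc7 transporters and slc3 partners, which also holds slc7a6os, 0 of 20 genes other than slc7a1b were called by limma at 22 dpf. An unadjusted p below 0.05 was found for 4 of the 20, of which 3 were higher. Of all rows 3.49% were called and 13.9% had such a p at that age. Slc7a1, the nearest relative by name, had a difference of 0.59 ± 0.30, and slc7a4, of the same subfamily, -1.30 ± 0.46 (adjusted p = 0.119). In wild type slc7a4 ran from 4.45 to 10.37 at that age, with a median of 6.28. The median over the 20 relatives was 0.26 at 22 dpf and 0.31 at 14 dpf. At 14 dpf slc7a5, a carrier of large neutral amino acids, rose in morphants (1.12 ± 0.28, adjusted p = 0.0229). This call was lost in a fit of the 14 dpf arrays alone and with array weights.

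**Figure D4:**
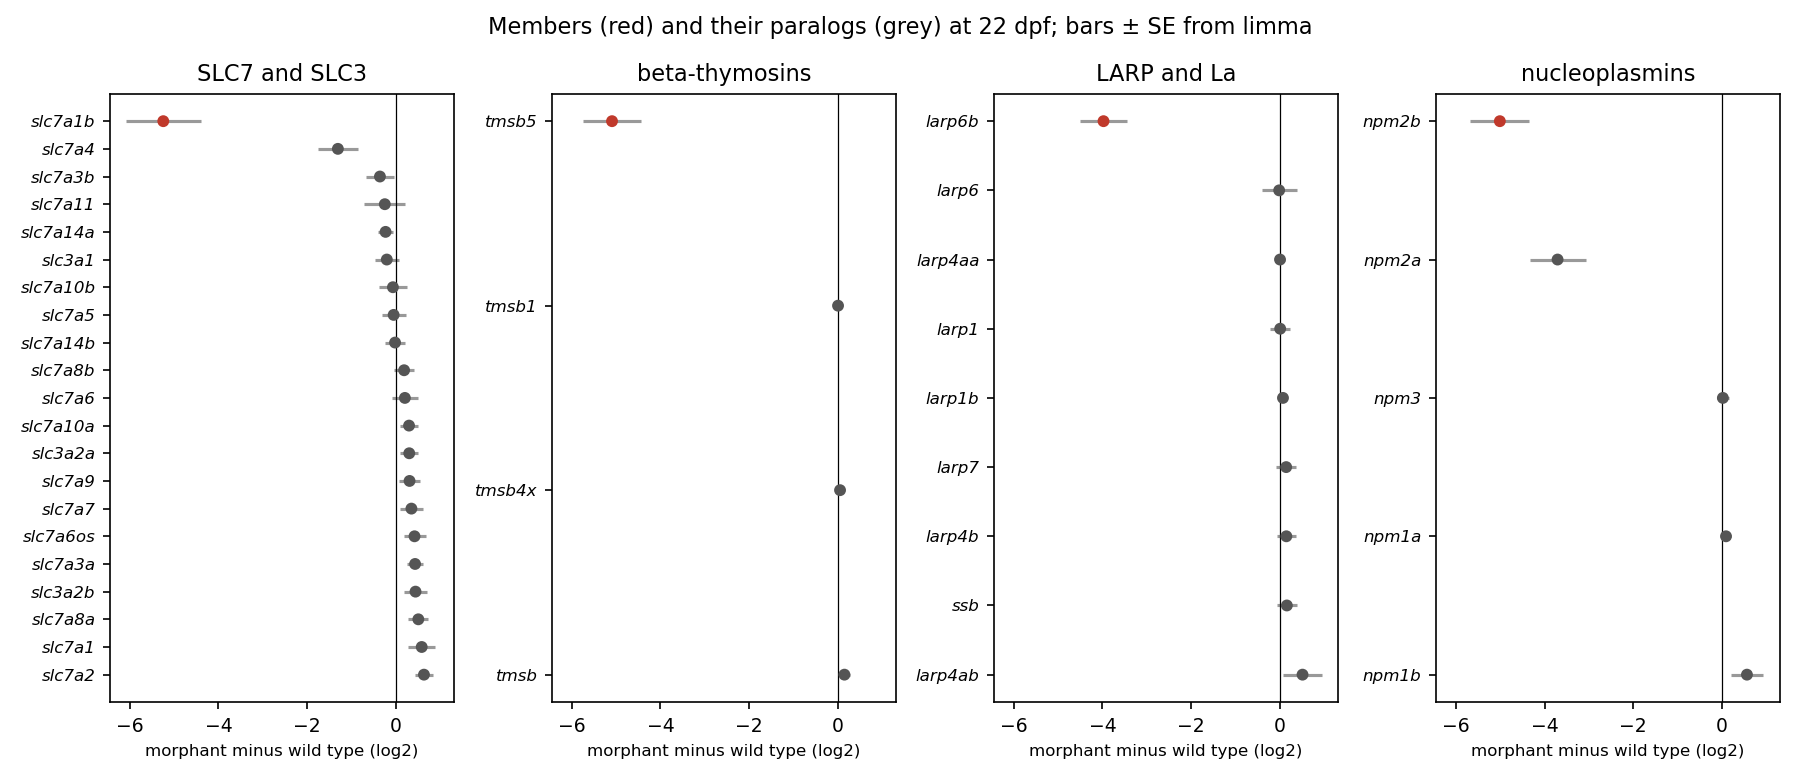
Morphant minus wild-type difference at 22 dpf in log2 units for the 4 genes (red) and the measured relatives in their family lists (grey). Bars are standard errors from limma. Npm2a (-3.70) is the relative farthest from no difference and the only relative called. Slc7a4 (-1.30) follows and was not called.

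Among genes that handle histones or package maternal chromatin, limma called 2 of 19 lower at 22 dpf and 0 higher. Over all rows it called 2.89% lower and 0.591% higher at that age. H1m, a linker histone stored in eggs, fell by 4.40 (SE 0.74, adjusted p = 4.48e-05), close to npm2b in size, and the nucleosome assembly protein nap1l1 fell by 0.53 (SE 0.12, adjusted p = 0.0049). The median of this list was 0.01, and h1m is also counted among the oocyte factors below. At 14 dpf nap1l1 (-0.62 ± 0.13) and ssrp1a (-1.04 ± 0.22) fell and the linker histone h1-10 (listed as h1fx) rose (1.04 ± 0.29). Over all rows limma called 1.33% lower and 1.15% higher at 14 dpf. Of the 19 genes, 2 at 22 dpf and 7 at 14 dpf had an unadjusted p below 0.05, beside 13.9% and 16.7% of all rows.

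The marker lists of the ovary give the setting of these values. Of 17 egg coat genes 17 fell at 22 dpf, with a median difference of -3.63, and limma called 0 at 14 dpf (0 at an unadjusted p below 0.05). Of 22 oocyte factors and maternal RNAs 14 fell at 22 dpf (median -2.27) and 2, ddx4 and org, at 14 dpf. Of 28 genes of germ plasm, piRNA and meiosis 22 fell at 22 dpf (median -2.51) and 15 at 14 dpf (median -1.29). Ddx4 is in both of these lists, so their counts and scores are not independent. Of all rows limma called 2.89% lower at 22 dpf and 1.33% lower at 14 dpf. The marker lists were written with earlier results of the same arrays known. The score of a list, the mean log2 value of its genes on an array, had an r with the mean of the 4 genes of 0.97 for the egg coat, 0.95 for oocyte factors and 0.92 for germ cell genes over the 14 wild-type arrays at 22 dpf. Slc7a1b, with the widest spread, weighs most in that mean, and npm2b had the reverse order of lists. In the same order of lists, r was 0.97, 0.91 and 0.82 for slc7a1b and 0.97, 0.96 and 0.94 for tmsb5. It was 0.96, 0.95 and 0.93 for larp6b and 0.84, 0.85 and 0.91 for npm2b.

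Markers of other cells moved with some of these values, and their part in the results was not tested. Of 13 genes of the ovarian soma 5 fell at 22 dpf, among them the aromatase gene cyp19a1a (-2.37 ± 0.40, adjusted p = 4.7e-05), and the list's score had an r of 0.58 with the mean of the 4 genes in wild type. This score ran from 5.98 to 7.02 in morphants and from 6.92 to 7.84 in wild type at that age. Of 17 genes in the list named for the testicular soma 3 fell, gsdf (-1.55 ± 0.35), cyp11a1 (-1.65 ± 0.44) and dmrt1 (-0.56 ± 0.16), with score ranges of 6.10 to 6.47 and 6.26 to 6.82 and an r of 0.14. Which cells of the trunk these 3 RNAs came from was not tested. Of 11 genes of the exocrine pancreas 3 rose, cel.2 (listed as cell, 2.77 ± 0.70), ela2l (2.46 ± 0.71) and amy2a (2.03 ± 0.61). Of the same 11 genes 10 were higher at an unadjusted p below 0.05, and the median difference was 2.03, with scores from 7.78 to 13.11 in morphants and 7.72 to 13.13 in wild type. With the near-duplicate pairs averaged, cel.2 (2.36), ela2l (2.06), amy2a (1.77), cyp11a1 (-1.36) and dmrt1 (-0.56) kept their direction and were not called. None of these genes was called with 22 dpf fitted alone either. Both fits used fewer samples than the main one, and the part of this in the lost calls was not tested. With title-number groups in the fit ela2l, amy2a and dmrt1 were not called, and repeated quantile normalization also lost the call of dmrt1. The skeletal muscle score had an r of -0.68 with the mean of the 4 genes, within a narrow range of 13.77 to 14.07, and limma called 0 of its 14 genes (1 at an unadjusted p below 0.05). The corresponding r was -0.59 for the epidermis score, 0.48 for blood, -0.41 for the exocrine pancreas and 0.27 for liver, and between -0.21 and -0.13 for intestine, leukocyte, kidney and nervous tissue. Of the liver, intestine, blood, leukocyte, kidney, epidermis and nervous tissue lists, 76 genes in all, limma called 0 at 22 dpf, and 7 had an unadjusted p below 0.05. At 14 dpf 6 of these 76 were called and 23 had an unadjusted p below 0.05. Over all rows the shares were 3.49% called and 13.9% unadjusted at 22 dpf, and 2.48% and 16.7% at 14 dpf. The 76 genes thus lay below these shares at 22 dpf and above them at 14 dpf. Of 13 leukocyte genes 3 rose in morphants there, irf8 (2.41 ± 0.36, adjusted p = 7.46e-05), cd74b (1.12 ± 0.27) and spi1b (0.88 ± 0.24), while 9 were higher at an unadjusted p below 0.05 and the median difference was 0.74. The score of this list ran from 9.38 to 10.43 in morphants and from 8.10 to 9.70 in wild type at 14 dpf.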

How the data were processed

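The authors' deposited table holds log2 values, 1 per row and array. The submitters' processing notes name RMA without a version; RMA corrects background, makes the arrays' distributions alike and summarises probes, so a shift shared by all genes would be hidden. Arrays have no read depth, and their number limits the precision. Groups came from the labels. Row names were matched to current symbols in zebrafish gene tables: 16618 rows by symbol, 3255 by gene ID, 2741 by synonym, 46 to several genes and 8815 to none. No genome build is named in the files, so no coordinates or sequences are given.

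Limma 3.58.1 (R 4.3.3) fitted 4 group means to every row, with 43 residual degrees of freedom and eBayes. P-values were adjusted by Benjamini-Hochberg over the 31475 rows, and 0.05 was the threshold for a call. Averaging near-duplicate pairs left 42 samples. The fit was tested on simulated data. The 4 genes and all lists were chosen with earlier results of these data known. Named genes are the 4, zp3, ddx4, dnd1 and buc, and the measured relatives in the family lists of the 4. Up to 3 called genes of each other list were added by smallest p at 22 dpf. So were the 5 named rows most alike to each of the 4. Called members of small counts outside this rule were named after their values were seen. Alternatives were pairs averaged, each age fitted alone, median centring, repeated quantile normalization, title-number groups, a filter at a mean of 6, array weights, Spearman correlation and leaving out each array. Averaging the pair of arrays 5 and 13, and leaving out morphant arrays 1 and 2, were chosen after seeing the data.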

Additional observations from a re-analysis of the deposited data

Results flagged for a closer look

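Within the morphants at 14 dpf, larp6b on array 1 stood at 6.52, far from the other 8 arrays by Dixon's criterion, and without it the difference between the groups was 0.13 in place of 0.26. In the same group ddx4 on array 3 stood at 10.92, while slc7a1b (5.58) and tmsb5 (6.38) were also highest there. The criterion was applied to 12 sets of values, all from morphant groups, and chance marks about 1 set in 20. The wild-type groups, of 14 arrays each, were not screened.

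Among tested genes outside the 4, the morphant difference was larger at 22 than at 14 dpf by limma's test of the change for zp3 (-4.44), zp3f.1 (-3.65), zp2 (-5.31), zpd (-4.17) and cyp19a1a (-2.46). Apart from zp3 these genes are named because of their small p at 22 dpf, so a larger difference at that age is favoured by the way they were picked. Zp3 and ddx4 were the markers set for the 4 genes with earlier results of these data known, so their choice is not free of these data either. For zp3 the change had a standard error of 0.94 (adjusted p = 0.0143). For ddx4 the change of -1.35 ± 0.80 did not pass (adjusted p = 0.555).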

How the results depend on the processing

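The differences of the 4 genes kept their sign and moved by less than the spread between arrays in all 256 alternatives tried, leaving out each array included. Most of these outcomes were bound to be so. Leaving out 1 array can move a group mean by only a part of that spread. Fitting each age alone or filtering rows changes the standard error and not the difference. Nothing is read from this count. At 22 dpf, leaving out 1 array gave -5.73 to -4.91 for slc7a1b, -5.47 to -4.83 for tmsb5, -4.29 to -3.77 for larp6b and -5.38 to -4.60 for npm2b. Counts of called rows depended on the setting. At 14 dpf there were 780, but 400 with arrays 5 and 13 also averaged and 195 from that age alone. At 22 dpf there were 1097, but 669 with pairs averaged, 667 with arrays 5 and 13 also averaged and 1753 with array weights. Centring arrays on their median turned the split at 14 dpf from 362 higher and 418 lower to 493 higher and 328 lower, and array weights gave 560 higher and 1193 lower at 22 dpf, against 186 and 911. With pairs averaged the split at 22 dpf was 38 higher and 631 lower. In wild type at 22 dpf, the correlation of tmsb5 with zp3 was 0.988 within title numbers up to 12, its rho with ddx4 was 0.798, and that of npm2b with ddx4 was 0.981 above 12. In morphants at 22 dpf, leaving out arrays 1 and 2 or keeping numbers above 12 gave 0.255 and 0.370 for slc7a1b with zp3, 0.408 and 0.537 for tmsb5 with zp3, and -0.528 and -0.653 for larp6b with zp3, which reversed. With ddx4 the same choices gave 0.586 and 0.622 for slc7a1b, 0.277 and 0.301 for tmsb5, and -0.188 and -0.331 for larp6b, also reversed. The rho there was 0.0909 for larp6b with zp3 and 0.758 for slc7a1b with ddx4. The cause was not tested, beyond arrays 1 and 2 being absent from both choices. No paired analysis was possible because morphant and wild-type arrays of an age share no title number.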

Other observations

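Wild-type array 20 at 14 dpf combined values that lay at opposite ends of its group. It had the highest tmsb5 (9.21) and the highest zp3 (7.99) of the 14 arrays and the lowest ddx4 (6.60). Its npm2b (8.39), larp6b (5.55) and slc7a1b (5.63) were within the range of the other arrays. The mean over the 28 germ plasm, piRNA and meiosis genes was 7.03 on this array, the lowest of the group, while that over the 17 egg coat genes was 5.99.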
